A study of Rattus norvegicus with 12 samples.

Results

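Ighm encodes the constant region of the immunoglobulin mu heavy chain, the heavy chain of IgM. The circular DNAs studied here are those that the authors' annotation table lists in an exon or intron of Ighm (ENSRNOG00000034190). They were chosen by that annotation, and the gene itself was picked because its share of the circles was lower in irradiated than in control skin, so the group values for Ighm are a description and carry no test. Ighm held 65 of 228353 extrachromosomal circular DNAs (eccDNA) in the list, of which 83890 were listed in an exon or intron of some gene.

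The heavy chain locus is cut and rejoined during normal B cell life. In developing B cells, V(D)J recombination joins variable, diversity and joining segments and can release the DNA between them as a circle. In activated B cells, class switching replaces the mu constant region with a downstream one and also releases the DNA between the joined switch regions as a circle. Such circles are known from B-lineage cells, whereas skin is made mainly of keratinocytes, fibroblasts and other cells that do not rearrange this locus. The assay reads DNA and gives no expression, so the cell types in the skin samples could not be checked against marker genes.

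Circles were isolated from dorsal skin of wild-type SD (Sprague Dawley) rats by Circle-seq, in which linear DNA is digested and the circles that remain are sequenced. The 3 groups of 4 libraries were untreated control skin, skin given 2 weekly doses of 5 Gy by electron beam (5 Gy x2) and skin given 4 (5 Gy x4), each irradiated group being sampled 7 days after its last dose. More doses thus go with later sampling, and when control skin was sampled is not given, so dose and time cannot be told apart. Separate animals are not stated for the replicates, and every p-value therefore measures spread among libraries that may be technical in part. The number of eccDNA per library ran between 3601 and 10389 in control skin, between 6326 and 28757 in 5 Gy x2 skin and between 20124 and 46163 in 5 Gy x4 skin, on 34499 to 397674 supporting reads. A supporting read is a split read or a discordant read pair that marks the junction of a circle, and 1 such read was enough to count a circle in a library.

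All 65 Ighm circles were listed in introns and none in an exon. They lay on chromosome 6 between positions 138057173 and 138557239 of build rn6, an interval of 500.07 kb, and no other eccDNA of the list lay inside that interval. The extent of Ighm is that of the authors' annotation. Where the mu constant region lies within the interval was not looked up, so these circles need not come from the constant region itself. Of the 65 circles, 2 were listed under Igh-6 (ENSRNOG00000048402) as well as Ighm. The circles were 110 to 2718 bp long with a median of 383 bp and quartiles of 243 and 568 bp. Summed over libraries there were 84 presences of an Ighm circle, resting on 1102 supporting reads, and every one of the 12 libraries held at least 1. A gene had a median of 3 such presences, and 30 of the 14875 genes with an exon or intron circle had more than Ighm. These numbers are not adjusted for gene length. The interval held 130 circles per Mb, against 120 in the 1 Mb before it, 7 in the 1 Mb after it and 87.5 over chromosome 6.

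The circles were unevenly spread along the interval. Counted in steps of 50 kb from the first start, the interval held 12, 10, 3, 24, 7, 5, 0, 3, 0 and 1 circles. Gaps without any circle reached 105643 bp (positions 138346278 to 138451920) and 100100 bp (positions 138456744 to 138556843), so that most circles lay in the part of the interval with the lower coordinates. Circles that shared at least 1 base formed 40 separate groups, and 32 of those groups were a single circle. Of the 65 circles, 56 (86.2%) were found in 1 library only, against 95.8% of all exon or intron eccDNA. A circle here is an entry of the list, which can merge calls of several libraries with different ends.

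**Figure D1:**
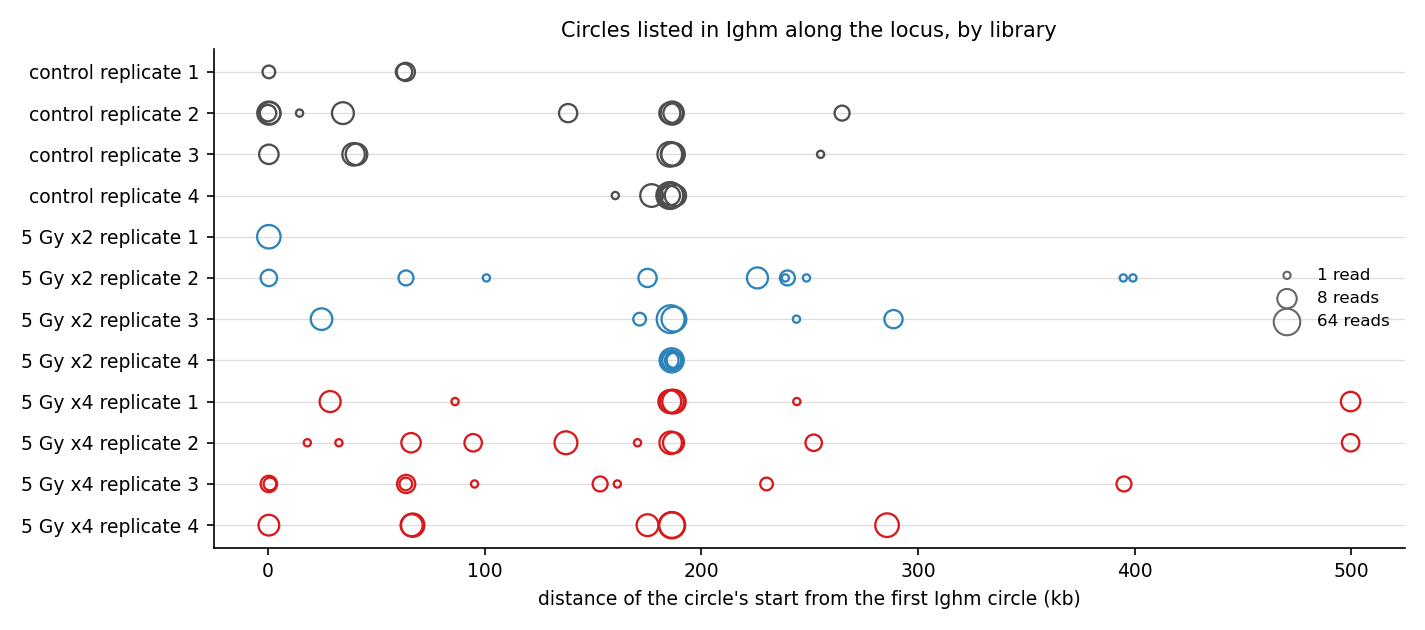
Circles listed in Ighm, drawn by library (rows) at the distance of their start from the first Ighm circle in kb (x axis), with the size of a ring growing with the log2 of its supporting reads. Rings near 0 kb recur in 7 libraries, rings near 186 kb pile up in 8 libraries, and few lie beyond 300 kb.

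A stretch of 3232 bp, from position 138242610 to 138245841, held 16 of the 65 circles (24.6%), 27 of the 84 presences (32.1%) and 63.7% of the supporting reads of Ighm on 0.646% of the interval. This stretch, called the 3.2 kb stretch here, was picked after its values were seen, and it was found in 8 of the 12 libraries. Its density was 4950.5 circles per Mb, against 98.6 per Mb in the rest of the interval and 87.5 per Mb over chromosome 6. Among the 215998 groups of overlapping eccDNA in the whole list that span under 5000 bp, it held the most circles; the next such group, on chromosome 13 between positions 100964118 and 100968233, held 15. Groups of any span with more circles numbered 9, the shortest of which spanned 6718 bp.

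The stretch held 0, 3, 3 and 5 circles in control replicates 1 to 4, 0, 0, 2 and 7 in 5 Gy x2 replicates 1 to 4, and 3, 2, 0 and 2 in 5 Gy x4 replicates 1 to 4. Its supporting reads numbered 0, 42, 78 and 177 in the control libraries, 0, 0, 137 and 63 in the 5 Gy x2 libraries and 70, 30, 0 and 105 in the 5 Gy x4 libraries. Each group held at least 1 library without such a circle, and the groups overlapped. A count of 0 allows a share of the stretch of up to 0.0769% of the eccDNA of control replicate 1, 0.0194% and 0.0128% of those of 5 Gy x2 replicates 1 and 2, and 0.00799% of those of 5 Gy x4 replicate 3 (upper bounds of exact Clopper-Pearson 95% intervals). These bounds, and the intervals given for single libraries, cover counting error only, since reads made by amplification are not independent molecules.

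Several circles of the stretch lay over each other with different ends. The longest, from 138243006 to 138245723 (2718 bp), had 52 supporting reads in control replicate 4, 101 in 5 Gy x2 replicate 3 and 18 in 5 Gy x4 replicate 2. Another, from 138242610 to 138244727, was present in 5 libraries, with 12, 35 and 72 reads in control replicates 2, 3 and 4, 5 reads in 5 Gy x2 replicate 4 and 20 reads in 5 Gy x4 replicate 1. In 5 Gy x2 replicate 4 this entry joins a call with 5 split reads and a call with 6 discordant pairs, and the count of 5 does not hold the pairs. A circle from 138243593 to 138245092 (1500 bp) had 8 reads in 5 Gy x2 replicate 4 and 26 and 44 reads in 5 Gy x4 replicates 1 and 4. These entries merge calls whose ends differ: the 6 calls behind the entry at 138242610 were 846 to 1674 bp long, with starts up to position 138243176. The entry from 138243465 to 138244246 (782 bp) was the exception in the whole of Ighm, with the same start and the same end in both of its libraries, 30 reads in 5 Gy x2 replicate 4 and 32 reads in control replicate 4. The shortest Ighm circle, 110 bp from 138244805 to 138244914, also lay here and was found in 5 Gy x2 replicate 4.

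**Figure D2:**
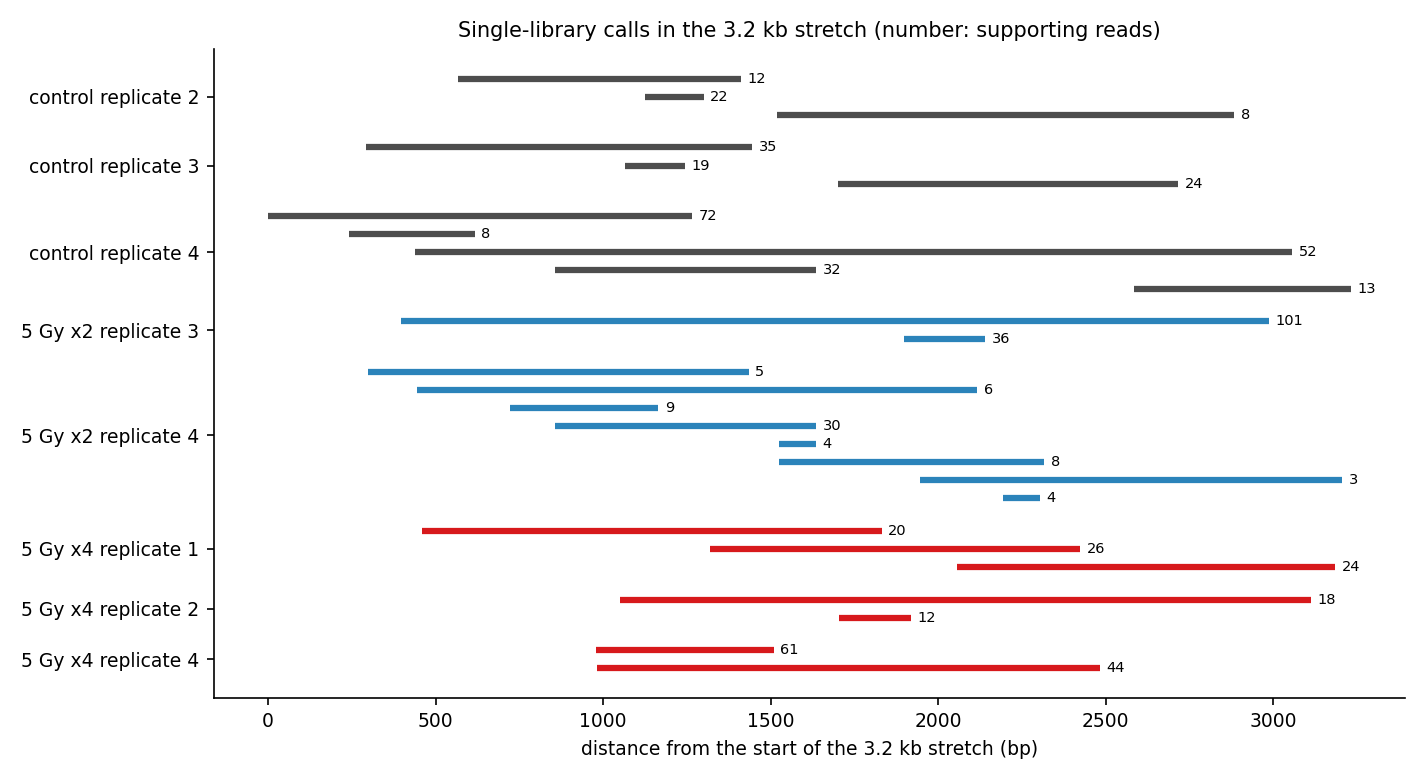
The 28 single-library calls in the 3.2 kb stretch as bars from start to end (x axis, distance from the start of the stretch in bp), grouped by library, with the supporting reads beside each bar. Calls of different libraries cover the same DNA with different ends, and 8 of the 28 calls come from 5 Gy x2 replicate 4.

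Circles inside and outside the stretch differed in their form. The stretch was chosen as the group of overlapping circles under 5000 bp with the most members. Longer circles overlap others more readily, so these differences may follow in part from that choice, and they carry no test. Within the stretch, 10 of 16 circles were found in 1 library only, against 46 of 49 outside it. The median length of an entry was 486.5 bp in the stretch and 377 bp outside it, and that of the single-library calls behind the entries was 930.5 bp and 386 bp. Of the entries, 5 of the 6 of 1000 bp or more lay in the stretch. A length of 330 to under 420 bp, which 66.4% of exon or intron eccDNA had, was found in 1 of 16 circles (6.25%) in the stretch and in 23 of 49 (46.9%) outside it. The median number of supporting reads per circle, summed over libraries, was 24.5 in the stretch and 4 outside it, against 4 for exon or intron eccDNA.

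The kind of evidence behind the calls differed too. Discordant pairs made up 43.2% of the supporting reads in the stretch, against 20.5% in the rest of Ighm and 20.5% in other exon or intron eccDNA. Calls without any split read numbered 6 of 28 (21.4%) in the stretch and 6 of 57 (10.5%) in the rest of Ighm, and made up 3.88% of other exon or intron calls. The table marks each entry as hconf, conf or lconf without defining these words. All 16 entries of the stretch were marked conf, as were 17 of the 49 others (34.7%) and 15.1% of exon or intron eccDNA. Whether reads of the stretch map to 1 place only in the genome is not given in the sources used here, and its part in these values was not tested.

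Outside the stretch, the most recurrent circle lay near the end of the interval with the lowest coordinates, from 138057559 to 138058514 (956 bp, marked hconf). It was present in 7 libraries, more than any other Ighm circle. It had 2, 22 and 8 supporting reads in control replicates 1, 2 and 3, 24 and 4 in 5 Gy x2 replicates 1 and 2, and 4 and 11 in 5 Gy x4 replicates 3 and 4. The calls behind this entry were 470 to 734 bp long and none had both ends in common with another library's call. They rested on 22 split reads and 53 discordant pairs. Those of control replicate 3, 5 Gy x2 replicate 1 and 5 Gy x4 replicates 3 and 4 had no split read. In 5 Gy x2 replicate 1 this entry was the only Ighm circle.

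The number of Ighm circles per library overlapped between the 3 groups, while every 5 Gy x4 library held more circles in all than every control library. Ighm had 3, 10, 7 and 7 circles in control replicates 1 to 4, 1, 10, 6 and 7 in 5 Gy x2 replicates 1 to 4, and 7, 10, 9 and 7 in 5 Gy x4 replicates 1 to 4. The groups overlapped, and the mean was 6.75 ± 2.87 in control skin, 6.0 ± 3.74 after 5 Gy x2 and 8.25 ± 1.5 after 5 Gy x4 (SD, n = 4 each). All eccDNA averaged 33273 in 5 Gy x4 libraries and 7057.5 in control libraries, a ratio of 4.71, against a ratio of 1.22 for Ighm circles.

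As a share of a library's eccDNA, Ighm was lower in every 5 Gy x4 library than in every control library. It made up 0.0317%, 0.0224%, 0.0195% and 0.0348% of the eccDNA of 5 Gy x4 replicates 1 to 4, against 0.0626%, 0.106%, 0.0674% and 0.194% of those of control replicates 1 to 4. The means were 0.0271% ± 0.00731 in 5 Gy x4 and 0.108% ± 0.0611 in control skin (SD, n = 4 each), a ratio of 0.252. Few circles stand behind each share: the exact (Clopper-Pearson) 95% interval ran from 0.0140% to 0.0717% in 5 Gy x4 replicate 4 and from 0.0129% to 0.183% in control replicate 1, so these 2 libraries were not separated at this depth.

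In 5 Gy x2 skin the share was 0.00526%, 0.0348%, 0.0219% and 0.111% in replicates 1 to 4. The mean of 0.0431% ± 0.0466 (SD, n = 4) was 0.401 times the control mean, and replicate 4 overlapped the control libraries. That replicate had the fewest eccDNA among the irradiated libraries, 6326, and all 7 of its Ighm circles lay in the 3.2 kb stretch. Without it the ratio to control was 0.192 with no overlap. This library and control replicate 4 hold the 782 bp circle with equal ends. Of the 12 pairs of libraries with the same replicate number they also had the highest correlation, 0.403, of their deviations from the group means over windows of the genome. Over the whole list they shared 20 circles with both ends equal, 0.551% of the calls of control replicate 4. Such values are percentages of the calls of the smaller library, with a median of 0.435% over the 66 pairs of libraries. Control replicate 4 was the smallest library, and its other pairs ran from 0.441% (5 Gy x2 replicate 3) to 2.01% (control replicate 2). Only its pair with 5 Gy x2 replicate 3 lay below 0.551%. The part of any sharing between 5 Gy x2 replicate 4 and control replicate 4 in the share of Ighm was not tested. The ratio of 5 Gy x4 to 5 Gy x2 was 0.628 with 5 Gy x2 replicate 4 and 1.31 without it. Both irradiated groups are set against the same control libraries, so these ratios are not independent.

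**Figure D3:**
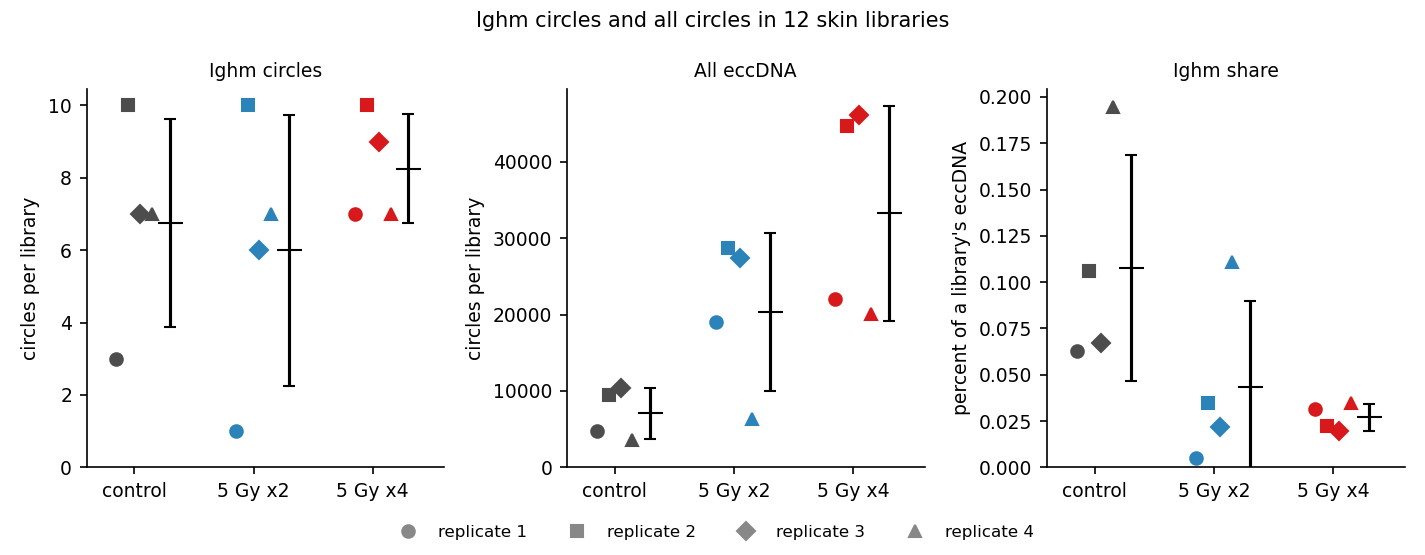
Ighm circles per library, all eccDNA per library and the Ighm share in percent of eccDNA (y axes) in control, 5 Gy x2 and 5 Gy x4 skin, with 1 point per library and the mean ± SD (n = 4) beside them. Ighm circles stay between 1 and 10 per library while all eccDNA run up to 46163, and the Ighm share lies below 0.035% in all irradiated libraries but 5 Gy x2 replicate 4.

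The share depended on what was counted. Measured in supporting reads in place of circles, the 5 Gy x4 to control ratio was 0.388 and the groups overlapped. Circles of 330 to under 420 bp made up 66.3% of the list, but not most of the circles of control skin. They had 90322 of 133093 presences in 5 Gy x4 and 10115 of 28230 in control skin, over 4 libraries each. Among these circles, Ighm made up 0.0119% ± 0.00654 in 5 Gy x4 and 0.123% ± 0.15 in control skin (SD, n = 4 each), from 10 and 6 circles, a ratio of 0.0969 without overlap. That control mean rests on replicate 4 (0.345%) and is 0.0483% without it. Among circles of other lengths it made up 0.0576% ± 0.0190 in 5 Gy x4 and 0.116% ± 0.0435 in control skin, a ratio of 0.498, and the groups overlapped. The part of the length mix in the lower share was not tested beyond these values.

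The lower share was not confined to the stretch, nor to Ighm. Outside the stretch, Ighm made up 0.0201% ± 0.00325 of eccDNA in 5 Gy x4, against 0.0577% ± 0.0149 in control skin (SD, n = 4 each), a ratio of 0.348 without overlap. In 5 Gy x2 skin it made up 0.0137% ± 0.0153, which is 0.237 times the control mean, also without overlap. The 1 Mb before the interval, on the side of Tedc1, Crip1 and Crip2, the nearest genes with a circle, had shares of 0.0483% ± 0.00984 in 5 Gy x4, against 0.162% ± 0.0724 in control skin, a ratio of 0.298. In 5 Gy x2 skin the share there was 0.0496% ± 0.0104, a ratio to control of 0.306, and neither irradiated group overlapped the control libraries. Whether Ighm and this neighbouring 1 Mb differed in their ratios was not tested.

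**Figure D4:**
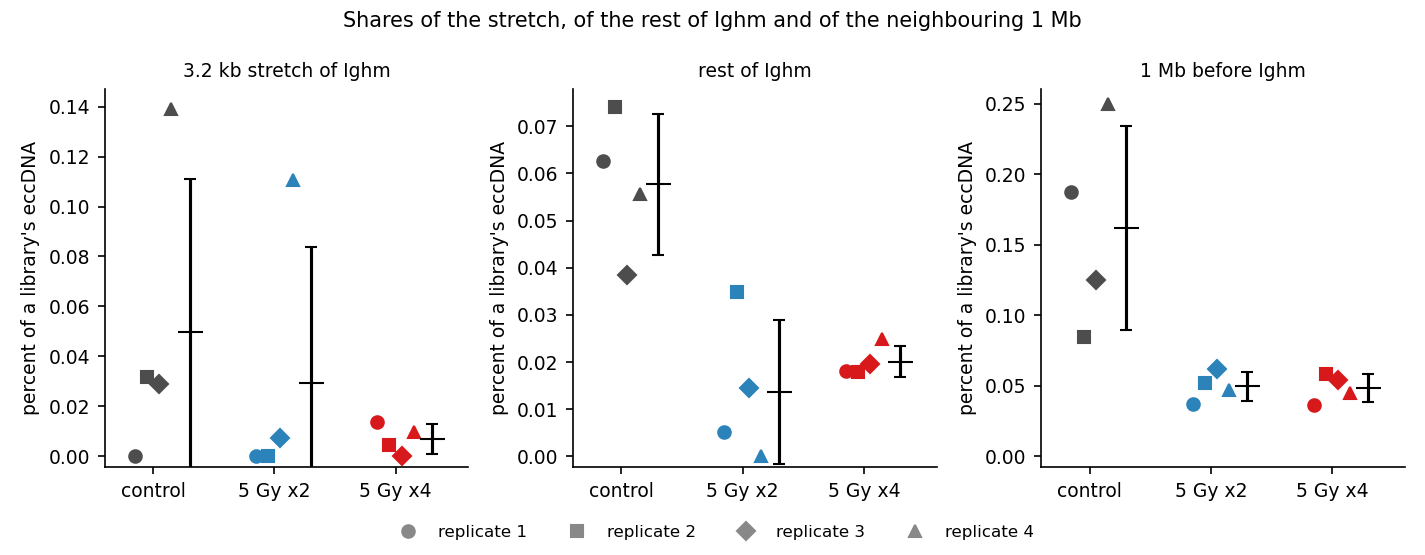
Share of a library's eccDNA (percent, y axes) held by the 3.2 kb stretch, by the rest of Ighm and by the 1 Mb before the interval, with 1 point per library and the mean ± SD (n = 4); error bars that pass below the lower edge of the axis are cut there. The groups overlap for the stretch, while the rest of Ighm and the neighbouring 1 Mb are higher in every control library than in every irradiated one.

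The neighbourhood was lopsided. The 1 Mb before the interval held 120 circles, whereas the 1 Mb after it held 7, with 0 presences in control libraries, 3 in 5 Gy x2 libraries and 5 in 5 Gy x4 libraries. All eccDNA had 28230, 81532 and 133093 presences in the same groups. On the side after the interval, the nearest gene with an exon or intron circle was AABR07065714.1, 1249.9 kb from the last Ighm circle, followed by AABR07065812.2 and AABR07065815.2. Crip2, Crip1 and Tedc1 on the other side were 79.2 to 102.3 kb away and held 2 to 4 circles each.

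Larger circles were listed apart as ecDNA, and 2 of the 157 such entries named Ighm. The first, from 138096662 to 139125184 (1028.5 kb), rested on 18 split reads of control replicate 3 and listed 25 genes. An eccDNA of 2205 bp with the same start, ending at 138098866, was called in the same library, also with 18 supporting reads. The second, from 138524783 to 139169403 (644.62 kb), rested on 2 split reads of 5 Gy x4 replicate 3 and listed 24 genes, among them Ighg1, a gamma constant region gene. Both were marked lconf.

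Ighm circles were then compared with the other exon or intron eccDNA of the same library in the 11 libraries with at least 3 Ighm circles, which leaves out 5 Gy x2 replicate 1. Each measure was tested by an exact two-sided sign-flip permutation test over libraries, and the p-values were adjusted by Benjamini-Hochberg over these 5 tests. Median length was 504.5 ± 201 bp for Ighm, against 350.6 ± 19.8 bp for other genic circles (SD, n = 11), and was higher for Ighm in 11 of 11 libraries (exact adjusted p = 0.00244). Ighm circles were also found more often in another library, 35.8% ± 18.7 against 16.6% ± 12.3, higher in 10 of 11 libraries (exact adjusted p = 0.00326, n = 11). Recurrence here is that of merged entries, whose calls may differ in their ends. Of 85 single-library Ighm calls, 2 had both ends equal to a call of another library. The share of 330 to under 420 bp circles was 29.6% ± 17.7 for Ighm, against 53.8% ± 19.1 for other genic circles, lower in 9 of 11 libraries (exact adjusted p = 0.00586, n = 11). Mean log2 supporting reads per circle were 2.75 ± 1.09 for Ighm and 2.39 ± 0.84 for other genic circles, higher in 10 of 11 libraries (exact adjusted p = 0.00586, n = 11). An entry found in several libraries counts in each of them with the same merged length, and raises recurrence in each. The libraries are thus not independent in the tests of length, length share and recurrence, and the p-values do not allow for that.

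None of these 4 differences passed the threshold without the 3.2 kb stretch or against the neighbourhood. Without the stretch, 9 libraries in place of 11 kept at least 3 Ighm circles. The differences were then 79.1 bp in length (exact adjusted p = 0.366), 8.40 percentage points in recurrence (0.176), -14.2 points in the 330 to under 420 bp share (0.176) and -0.14 in log2 reads (0.422). Against the circles within 1 Mb on either side in place of all genic circles, they were 138 bp (exact adjusted p = 0.251, higher in 10 of 11 libraries), 0.471 points (0.913), -6.41 points (0.548) and -0.16 (0.548). The fifth measure was the exonic share, which was 0% for Ighm in every library and 11.6% ± 2.21 for other genic circles (SD, n = 11). Its test restates that no Ighm circle is listed in an exon, so its p is not given. It still counts among the 5 tests adjusted together. This made the adjusted p of length and of recurrence over the 11 libraries smaller than without it.

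**Figure D5:**
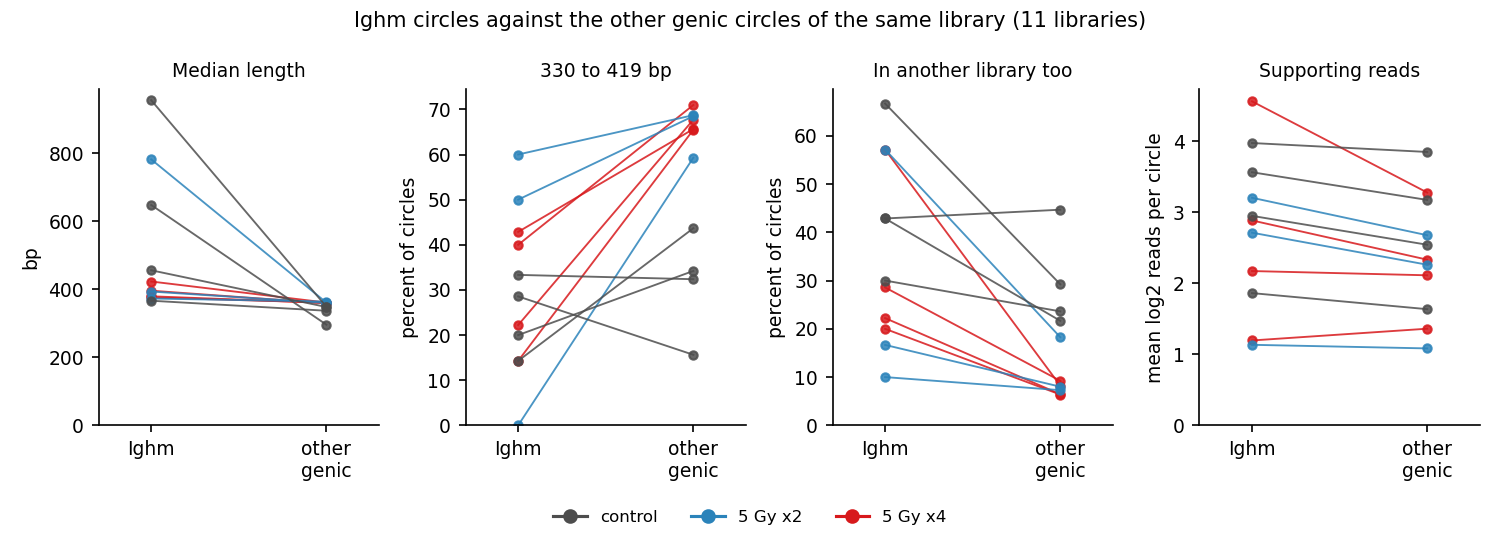
Median length in bp, percent of circles of 330 to under 420 bp, percent of circles whose merged entry was found in another library and mean log2 supporting reads (y axes) for Ighm and for the other genic circles of the same library, with 1 line per library (11 libraries). Length is higher for Ighm in all 11 libraries and recurrence in 10, and the 330 to under 420 bp share is lower in 9.

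Across genes, circles per gene were fitted in edgeR's quasi-likelihood test, which kept 15 genes with enough circles in enough libraries. Between 5 Gy x4 and control, 9 of the 15 genes (60.0%) passed an adjusted p of 0.05, with 4 higher and 5 lower (33.3%). Ighm had a log2 fold change of -1.63 (SE 0.41), and nothing is read from its being among the lower genes, since this contrast chose it. Between 5 Gy x2 and control, 6 genes (40.0%) passed, 4 of them lower (26.7%), and Ighm had -1.58 (SE 0.43). Between 5 Gy x4 and 5 Gy x2, 0 genes (0.0%) passed, 1 had an unadjusted p under 0.05, DESeq2 also called 0, and Ighm had -0.05 (SE 0.40). The fit is relative to the genes kept. With 2579 genes of at least 10 circles, 9 genes (0.349%) passed between 5 Gy x4 and control, 8 higher and 1 lower, and 0 (0.0%) passed between 5 Gy x2 and control (436 at an unadjusted p under 0.05). The median log2 fold change of all genes in that fit was 1.27 and 0.90 in these contrasts. A gene can reach the limit of 10 circles through the irradiated libraries alone, which held more circles, so these medians depend on that limit. Ighm was not among the genes that passed, with -0.74 (SE 0.48) and -0.72 (SE 0.51).

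Leaving out 1 library at a time also changed which genes were kept, 18 to 29 of them, and Ighm then ran between -1.54 and -0.78 for 5 Gy x4 against control. The fold moved by more than 1.5 times without control replicate 2 (-0.78), control replicate 3 (-1.02), 5 Gy x4 replicate 3 (-1.01) and 5 Gy x2 replicate 3 (-1.01). For 5 Gy x2 against control the smallest was -0.54 without 5 Gy x2 replicate 1, the library with 1 Ighm circle, followed by -0.72 without 5 Gy x2 replicate 3 and -0.73 without control replicate 2.

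Among the 15 genes, the 3 whose share of genic circles was most like that of Ighm over the 12 libraries were Apoo (Pearson r = 0.919), Galnt17 (r = 0.806) and Camta1 (r = 0.751). These correlations are a description over 12 libraries that share their totals, and carry no test. Apoo, a gene for a mitochondrial inner membrane protein, had 5, 20, 21 and 19 circles in control replicates 1 to 4, 6, 12, 15 and 17 in 5 Gy x2 replicates 1 to 4, and 17, 12, 15 and 14 in 5 Gy x4 replicates 1 to 4. Like Ighm, it had overlapping numbers of circles in the 3 groups. Galnt17 (a glycosyltransferase) had 2 to 7 circles per control library, 2 to 10 per 5 Gy x2 library and 4 to 15 per 5 Gy x4 library. Camta1 (a transcription activator) had 3 to 7, 4 to 17 and 6 to 19 circles.

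Of 38 genes listed for immunoglobulins and B cells, 22 had a circle, and the members other than Ighm had 159 presences in all. Those with a circle had a median of 2 presences, against 3 over all 14875 genes with a circle. No member but Ighm was among the 15 genes of edgeR's fit. In the fit of 2579 genes, 5 other members were tested and 0 passed in any contrast, with a lowest adjusted p of 0.232. Of all 2579 genes, 9 (0.349%) passed between 5 Gy x4 and control and 0 in the other contrasts, so 0 of 5 does not set the members apart. The median log2 fold change of these 5 members was 0.10 between 5 Gy x4 and control, against 1.27 over all genes of the fit. Between 5 Gy x2 and control these medians were 0.39 and 0.90. Genes can reach the limit of 10 circles through the irradiated libraries alone, which held more circles. The medians depend on that limit, so nothing is read from them. Whether the members differ from other genes was not tested. No circle was listed under the symbols Ighd (the delta constant region), Igkc (the kappa light chain constant region), or Cd79a and Cd79b, which encode signalling parts of the B cell receptor. Whether the annotation holds each of these symbols was not checked, and circles at Ighd could be listed under Ighm. The most circles after Ighm were in Ebf1, a transcription factor of early B cells, with 4 presences in control libraries, 10 in 5 Gy x2 libraries and 22 in 5 Gy x4 libraries. Bach2, a repressor of plasma cell formation, had 3, 10 and 17 in the same groups. Pax5, the factor that maintains B cell identity, had 6, 4 and 10, and Ikzf3 had 4, 8 and 9. Ighm, by comparison, had 27, 24 and 33. All exon or intron eccDNA together had 10463 presences in control libraries, 29731 in 5 Gy x2 libraries and 49366 in 5 Gy x4 libraries.

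Of 18 genes listed for T cell receptors and T cells, 12 had a circle and the sum was 76 presences. Themis, a signalling protein of developing T cells, had 3 in control libraries, 5 in 5 Gy x2 libraries and 19 in 5 Gy x4 libraries, and Lef1 had 0, 5 and 10. All exon or intron eccDNA had 10463, 29731 and 49366 presences in the same groups. No gene of this list was among the 15 genes. Of the 3 members in the fit of 2579 genes, 0 passed in any contrast, where 9 of all 2579 genes (0.349%) passed between 5 Gy x4 and control. Lef1 reached the limit of 10 circles over all libraries through the irradiated libraries alone, so nothing is read from its values in this fit.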

How the data were processed

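The authors deposited 1 table per library with counts (whole-number supporting reads per circle, not normalized, per the file headers) and annotation tables of the whole series. Build rn6, BWA, Picard and bedtools are named in the submitters' processing notes; for the circle caller, the merging of calls and the gene annotation nothing was given in the sources used here. Starts counted from 0 were turned to 1-based positions. Ighm entries were taken by symbol among exon and intron entries, and single-library calls from the list cells. In 83 of 84 pairs of entry and library the count equalled split reads plus discordant pairs. The exception was the entry at 138242610 in 5 Gy x2 replicate 4.

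Circles per gene were tested with edgeR 4.0.16 (TMM, filterByExpr, 12 libraries in 1 fit) and DESeq2 1.42.0 as an alternative, in R 4.3.3; other values came from Python 3.11.15 with scipy 1.17.1. The named circles were those in most libraries, those with most reads, the shortest and the longest; genes were named by likeness over libraries, position or list. The gene, the lists and the tests were chosen with earlier results of these data known. Replicate numbers were not used to pair libraries, and whether they do is not stated. The correlations of deviations over 285 windows of 10 Mb ran from -0.08 to 0.40. The highest were 0.403 and 0.298, for replicates 4 and 3 of 5 Gy x2 and control. Pairs with different numbers are not given for comparison.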

Additional observations from a re-analysis of the deposited data

Results flagged for a closer look

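Of 51 groups of 4 libraries checked for a library far from the rest, 3 stood out; chance flags about 1 in 20 groups. The 3.2 kb stretch made up 0.111% of the eccDNA of 5 Gy x2 replicate 4, and the gap to the next library was 0.934 of the group's range. In the same library, Ighm made up 0.280% of circles outside 330 to under 420 bp, with a gap of 0.894 of the range. In control replicate 4, Ighm made up 0.345% of circles of 330 to under 420 bp, with a gap of 0.872 of the range. These were the libraries with the fewest eccDNA of their groups, 6326 and 3601, and the part of depth was not tested.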

How the results depend on the processing

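With 1 to 10 Ighm circles per library, depth limits most values, and no group contrast of Ighm is a test. The Ighm share averaged 0.0271% in 5 Gy x4, 0.0431% in 5 Gy x2 and 0.108% in control skin. With genic eccDNA as the denominator it was 0.0733%, 0.116% and 0.288%, and with those of chromosome 6 it was 0.479%, 0.765% and 1.96%, by the choice of denominator. In 5 Gy x4 skin it was 0.0369% by supporting reads, 0.0119% among 330 to under 420 bp circles and 0.0576% among other lengths, where 5 Gy x2 skin had 0.0940%. Leaving out 1 library gave 0.0245% to 0.0296% in 5 Gy x4, 0.0206% to 0.0558% in 5 Gy x2 and 0.0786% to 0.123% in control skin. The length split and the setting without the stretch were chosen after seeing the data.

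Of the within-library differences, log2 reads turned to -0.157 against the neighbourhood and -0.142 without the stretch. The length difference fell short of the threshold at 138 bp and 79.1 bp, the 330 to under 420 bp share at -6.41 and -14.2 points and recurrence at 0.471 and 8.40 points, under the same settings; the cause was not tested. With 1 library left out, length stayed past the threshold at 109 to 168 bp and the 330 to under 420 bp share at -28.0 to -20.7 points. Log2 reads did so at 0.262 to 0.407 and recurrence at 16.2 to 21.3 points. The exonic difference ran from -12.1 to -11.4 points, which restates that no Ighm circle is listed in an exon. At least 2 supporting reads, 1 Ighm circle per library or each library's own call length kept length, 330 to under 420 bp share, log2 reads and recurrence past the threshold. With at least 2 reads the length difference was 276 bp and higher in 9 of 11 libraries.

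The count of genes called was 4 to 14 for 5 Gy x4 against control and 2 to 15 for 5 Gy x2 against control when 1 library was left out. The first was 14 without 5 Gy x2 replicate 4 or control replicate 1 and 4 without control replicate 4. The second was 2 without control replicate 4, 3 without 5 Gy x2 replicate 3, 11 without 5 Gy x2 replicate 1 or control replicate 3, 12 without control replicate 1 or 2 and 15 without 5 Gy x2 replicate 4. For 5 Gy x2 against control, DESeq2 called 3 and the 2579-gene fit 0. With the replicate number as a block, 8 and 6 genes were called and Ighm had -1.61 and -1.50. Whether the numbers pair libraries is not stated.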
